A study of Mus musculus with 6 samples.

Results

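The genes described here are 10 contractile and cytoskeletal genes that are known targets of serum response factor, with the gene of that factor itself among them: Srf, Acta1, Acta2, Actc1, Tagln, Cnn1, Myl9, Tpm1, Vcl and Ankrd1. They were found by taking every probe set of the array whose single annotated gene symbol is one of these 10 names, which gave 18 probe sets of 45101 on the array. The brightest probe set of each gene gave its value, and the other 8 served as a check. All 10 genes lay above the filter on low signals and were among the 12917 genes tested, of 18193 genes on the array with a probe set of their own.

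RNA came from primary mouse embryo fibroblasts of 2 independent ICR embryos at embryonic day 15.5. Sample titles number the cultures 1 and 2, and each number is read here as 1 embryo whose culture was split over 3 conditions. There was 1 array per culture and condition. In the first condition, HS+LPS, cells were heated at 42 °C for 1 h and then given 1 µg/ml of lipopolysaccharide (LPS), the cell wall component of Gram-negative bacteria that signals through Toll-like receptor 4, for 4 h. In the second, LPS, cells had the same LPS exposure with no heating, and in the third, Control, cells stayed at 37 °C with no agent. The series is concerned with the inflammatory genes that heat shock holds down, and all cells were kept in medium with 10% fetal bovine serum, which is itself a known stimulus of serum response factor. None of the 6 arrays was of cells heated without LPS, so an effect of heat alone and an effect of heat on the response to LPS cannot be told apart. With 2 arrays per condition, the number of arrays limits the precision of every value below, and the p-values cover 2 embryos only.

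Serum response factor binds the CArG box, a short element of 2 C bases, 6 A or T bases and 2 G bases, and its choice of targets depends on its partners. The myocardin-related cofactors MRTF-A and MRTF-B are held in the cytoplasm by monomeric actin, enter the nucleus when actin assembles into filaments, and turn on contractile and cytoskeletal genes. The ternary complex factors, of which Elk4 is one, bind beside the same factor after MAP kinase signalling and turn on immediate early genes such as Fos and Egr1. In fibroblasts the contractile targets mark the contractile, myofibroblast-like state.

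The promoters show where such a box lies in these genes. RefSeq promoter windows on GRCm38.p6, from 250 bases before to 50 bases after the annotated start, were at hand for 9 of the 10 genes, all but Tagln. An exact CArG box, read on both strands, was found in 5 of the 9 windows, those of Srf, Acta1, Actc1, Myl9 and Vcl, and in 1.63% of 32851 promoter windows of the same length. A box with 1 G or C among its 6 central bases was found in 4 of the 9, those of Acta1, Acta2, Actc1 and Myl9, and in 8.5% of all windows. The 4 windows printed in full belong to the genes that changed in the paired fit described below, and the shorter stretches show the boxes of 3 actin or adhesion genes that did not pass it. Capitals mark CArG boxes, exact or with 1 central G or C, and each sequence runs 5′ to 3′ on the strand of its gene.
Srf, chr17:46556113-46556412, minus strand: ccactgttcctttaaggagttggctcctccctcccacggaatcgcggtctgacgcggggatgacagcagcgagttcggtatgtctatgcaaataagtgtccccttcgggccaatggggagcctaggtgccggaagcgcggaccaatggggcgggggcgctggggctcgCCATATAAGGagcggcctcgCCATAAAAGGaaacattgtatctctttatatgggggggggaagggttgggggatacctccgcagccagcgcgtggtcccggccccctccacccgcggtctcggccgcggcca
Acta1, chr8:123894726-123895025, minus strand: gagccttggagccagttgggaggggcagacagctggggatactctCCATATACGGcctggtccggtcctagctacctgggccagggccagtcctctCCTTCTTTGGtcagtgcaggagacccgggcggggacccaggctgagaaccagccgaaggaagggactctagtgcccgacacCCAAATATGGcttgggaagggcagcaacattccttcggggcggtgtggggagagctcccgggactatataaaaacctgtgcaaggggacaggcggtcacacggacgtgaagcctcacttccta
Myl9, chr2:156775214-156775513, plus strand: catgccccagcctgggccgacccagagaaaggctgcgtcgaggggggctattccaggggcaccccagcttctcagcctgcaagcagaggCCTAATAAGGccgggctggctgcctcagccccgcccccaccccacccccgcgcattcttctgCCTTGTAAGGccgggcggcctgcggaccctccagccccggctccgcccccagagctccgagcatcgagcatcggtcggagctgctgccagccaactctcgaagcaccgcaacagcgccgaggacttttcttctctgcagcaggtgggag
Cnn1, chr9:22099003-22099302, plus strand: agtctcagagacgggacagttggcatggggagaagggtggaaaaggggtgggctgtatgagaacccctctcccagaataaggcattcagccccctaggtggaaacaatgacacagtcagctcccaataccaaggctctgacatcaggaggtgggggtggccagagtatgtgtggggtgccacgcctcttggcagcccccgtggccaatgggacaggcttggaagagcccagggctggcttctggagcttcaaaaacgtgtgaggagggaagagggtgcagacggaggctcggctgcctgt
Actc1, exact box at chr2:114052913-114052922, minus strand: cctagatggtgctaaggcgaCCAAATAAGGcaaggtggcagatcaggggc
Vcl, exact box at chr14:20929171-20929180, plus strand: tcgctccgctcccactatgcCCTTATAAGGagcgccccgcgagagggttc
Acta2, box with 1 central G or C at chr19:34255448-34255457, minus strand: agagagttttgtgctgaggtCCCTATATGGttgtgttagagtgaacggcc
Acta2, box with 1 central G or C at chr19:34255398-34255407, minus strand: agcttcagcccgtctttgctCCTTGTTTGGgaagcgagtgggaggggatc

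In the Srf window 2 exact boxes begin 82 and 62 bases before the start. The exact box of Acta1 begins 73 bases before it, that of Actc1 47 bases, that of Myl9 161 bases and that of Vcl 227 bases. Acta2 holds its boxes at 84 and 34 bases before the start, each with a base other than A or T in the centre. The Cnn1, Tpm1 and Ankrd1 windows held neither form, which says only that these letters are not in these 300 bases. The letters CATTCC on either strand, the core that TEAD factors bind, occurred in 5 of the 9 windows (Acta1, Acta2, Tpm1, Vcl and Ankrd1) and in 14.7% of all windows. The letters GAANNTTC, a pair of the repeats that heat shock factor binds, occurred in 1 of the 9, that of Ankrd1, where they overlap a CATTCC match by 1 base, and in 7.86% of all windows.

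Fibroblast markers were present throughout. All 10 of them were above the noise level on all 6 arrays, the noise level being the brightest of 27 probe sets for Bacillus subtilis transcripts, at 6.004 to 7.669 intensity units. Array medians ran from 11.9 to 14.4 units, and signals were used as deposited. In these bulk samples fewer cells of a type and less RNA per cell cannot be told apart. Signals are linear intensities, fold changes are differences of log2(intensity + 3.37), and a gene passed at a Benjamini-Hochberg adjusted p under 0.05 in limma over all 12917 genes.

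The first comparison, HS+LPS against LPS, asks what prior heating did to cells that all met LPS. Signals of Srf, Cnn1 and Acta1 were 1.45 to 1.68 times as high in HS+LPS as in LPS, Myl9 was 1.27 times as high, and the other 6 genes lay between 0.93 and 1.14 times. None of the 10 passed in the fit that leaves the culture out, in which 0.511% of all genes rose and 0.828% fell, and 2 of the 10, Cnn1 and Srf, were higher at an unadjusted p under 0.05, as were 4.94% of all genes. With the culture as a block, which compares arrays of the same embryo, 4 of the 10 rose (Srf, Acta1, Cnn1 and Myl9) and 0 fell, against 6.32% and 12.6% of all genes. The median difference over the 10 genes was 0.17 on the log2 scale and that over all genes -0.049.

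Srf is the gene of the transcription factor and has CArG boxes of its own. Its signal was 152.9 and 186.8 units in HS+LPS (cultures 1 and 2), 109.5 and 102.1 units in LPS and 128.8 and 117.2 units in Control. Both HS+LPS arrays were above the other 4, and both LPS arrays were below the other 4. Srf averaged 169.8 ± 24.0 units in HS+LPS and 105.8 ± 5.24 units in LPS (SD, n = 2 each), a log2 difference of 0.66 with a standard error of 0.16 and an adjusted p of 0.130 by limma. With the culture as a block the standard error was 0.14 and the adjusted p was 0.0126. The difference was 0.47 in culture 1 and 0.85 in culture 2.

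A second, dimmer Srf probe set showed a smaller difference of 0.24, with an adjusted p of 0.332 by limma with the culture as a block over 27022 probe sets, where the first gave 0.0146. The first is of the type whose probes may also bind other transcripts, so the size of the Srf difference is uncertain.

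Acta1 encodes skeletal muscle alpha-actin, a filament protein of striated muscle that fibroblasts also transcribe. Its signal was 377.0 and 248.1 units in HS+LPS, 246.7 and 179.6 units in LPS and 294.1 and 233.6 units in Control. In each culture HS+LPS was highest and LPS lowest, and culture 1 was above culture 2 in every condition. Acta1 averaged 312.6 ± 91.1 units in HS+LPS and 213.1 ± 47.5 units in LPS (SD, n = 2 each), a log2 difference of 0.53. Its standard error was 0.26 without the block (adjusted p = 0.378, limma) and 0.10 with it (adjusted p = 0.00879), and the difference was 0.60 in culture 1 and 0.46 in culture 2.

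Neither of the remaining actins passed in HS+LPS against LPS, with or without the block. Acta2 encodes smooth muscle alpha-actin, the usual marker of the myofibroblast. It had 6187 and 5439 units in HS+LPS, 5885 and 4837 units in LPS and 5687 and 5741 units in Control, and the HS+LPS and LPS arrays overlapped. Its log2 difference of 0.12 had a 95% interval of -0.068 to 0.31 with the culture as a block. Its probe set, like the first one of Srf, is of the type whose probes may also bind other transcripts. A second Acta2 probe set was far dimmer, with a mean of 34.3 units where the first had 5629 units. It gave -0.12, with -0.26 in culture 1 and 0.014 in culture 2. Actc1, cardiac alpha-actin, was dim, with 8.93 and 26.0 units in HS+LPS, 13.3 and 19.6 units in LPS and 19.1 and 27.6 units in Control. HS+LPS was below LPS in culture 1 and above it in culture 2, and the interval with the block, -0.75 to 0.66, was the widest of the 10 genes. A difference as large as that of Acta1 lies within this interval, so Actc1 cannot be said to lack one.

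**Figure D1:**
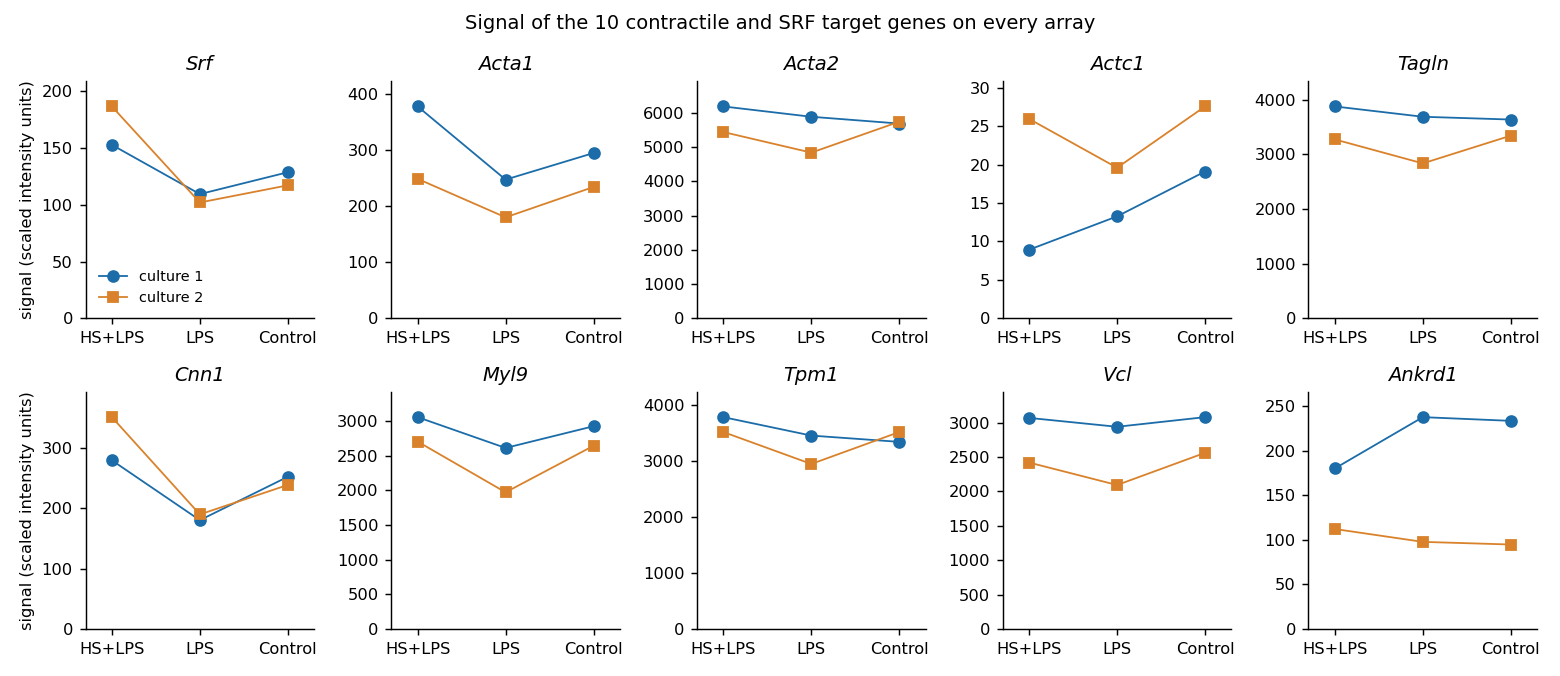
Signal of each of the 10 genes on every array, in linear intensity units on axes of their own, with HS+LPS on the left, LPS in the middle and Control on the right; lines join arrays of the same embryo. Srf and Cnn1 have both HS+LPS arrays above the other 4, and Ankrd1 has culture 1 above culture 2 in every condition.

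Of the actin-binding regulators of contraction, calponin had the largest difference. Cnn1 encodes calponin 1, which binds actin and slows the myosin motor of smooth muscle. Its signal was 279.8 and 351.4 units in HS+LPS, 180.4 and 190.0 units in LPS and 252.5 and 238.9 units in Control. The 3 conditions did not overlap, with HS+LPS highest and LPS lowest. Cnn1 averaged 315.6 ± 50.7 units in HS+LPS and 185.2 ± 6.74 units in LPS (SD, n = 2 each), a log2 difference of 0.75 with a standard error of 0.15 (adjusted p = 0.0928, limma). With the block the standard error was 0.12 and the adjusted p was 0.00326, and the difference was 0.62 in culture 1 and 0.88 in culture 2.

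Myl9, a regulatory light chain of smooth muscle and non-muscle myosin, had 3057 and 2705 units in HS+LPS, 2613 and 1972 units in LPS and 2926 and 2644 units in Control. Both HS+LPS arrays were above both LPS arrays. The log2 difference was 0.34, with an adjusted p of 0.355 by limma without the block and 0.0214 with it. Tpm1, an alpha-tropomyosin that runs along the actin filament, had 3786 and 3520 units in HS+LPS, 3457 and 2949 units in LPS and 3344 and 3521 units in Control. Its HS+LPS and LPS arrays did not overlap either, but the log2 difference of 0.19 did not pass (adjusted p = 0.141 with the block). A dimmer Tpm1 probe set gave 0.71 and also did not pass (adjusted p = 0.0704 with the block over probe sets).

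Tagln, Vcl and Ankrd1 did not separate HS+LPS from LPS. Tagln encodes transgelin (SM22-alpha), an actin-bundling protein, and had 3876 and 3272 units in HS+LPS, 3687 and 2834 units in LPS and 3636 and 3341 units in Control. Vcl encodes vinculin, which ties actin to cell adhesions, and had 3069 and 2419 units in HS+LPS, 2940 and 2092 units in LPS and 3080 and 2561 units in Control. For both genes HS+LPS was above LPS within each culture by 0.062 to 0.21 on the log2 scale, and the arrays of the 2 conditions overlapped. Ankrd1 encodes a nuclear and sarcomeric ankyrin-repeat protein and is a target of YAP as well. It had 180.0 and 112.0 units in HS+LPS, 237.5 and 97.6 units in LPS and 233.4 and 94.7 units in Control, with HS+LPS below LPS in culture 1 and above it in culture 2.

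**Figure D2:**
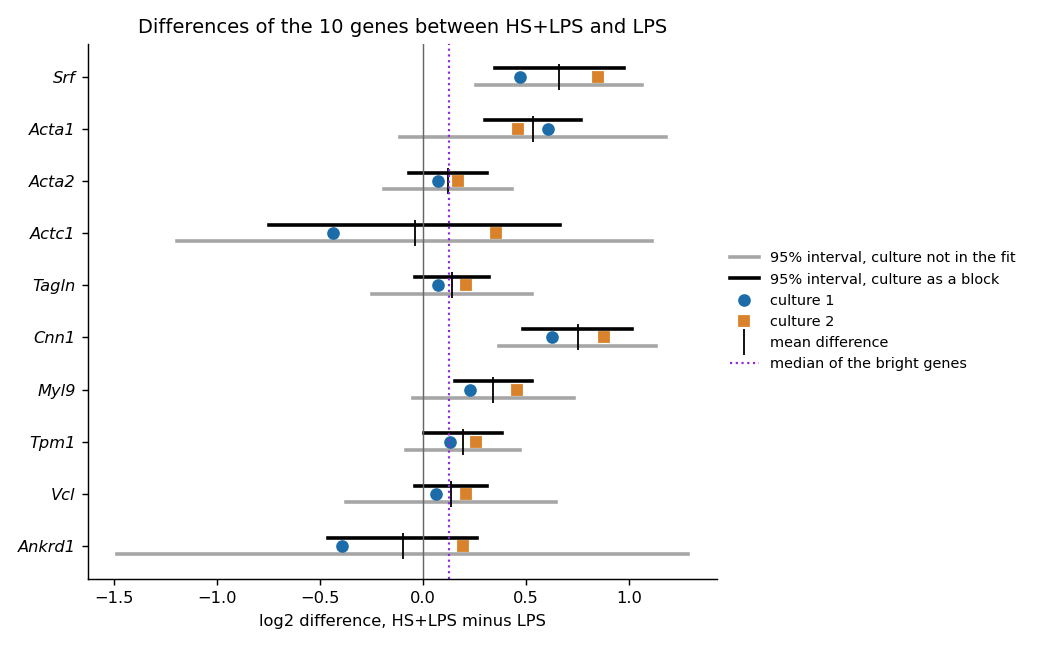
Log2 difference between HS+LPS and LPS for each of the 10 genes; the circle is culture 1, the square culture 2, the vertical tick their mean, the black bar the 95% interval with the culture as a block and the grey bar the interval without it, and the dotted line the median of the 908 bright genes. The ticks of Cnn1, Srf, Acta1 and Myl9 lie at 0.75, 0.66, 0.53 and 0.34, with black bars that do not reach 0.

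Of the 8 other probe sets, 6 lay above the filter on low signals, and 5 of these had the sign of the brightest one. The second probe set of Vcl gave a difference of 0.12 beside 0.14, and that of Ankrd1 -0.25 beside -0.10. For Tpm1 2 further probe sets gave 0.22 and 0.71 beside 0.19, and for Acta2 the sign differed, as given above. The 2 below the filter, 1 of Acta2 and 1 of Tpm1, were above the noise level on 3 of 6 arrays each and gave -0.79 and 0.87.

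**Figure D3:**
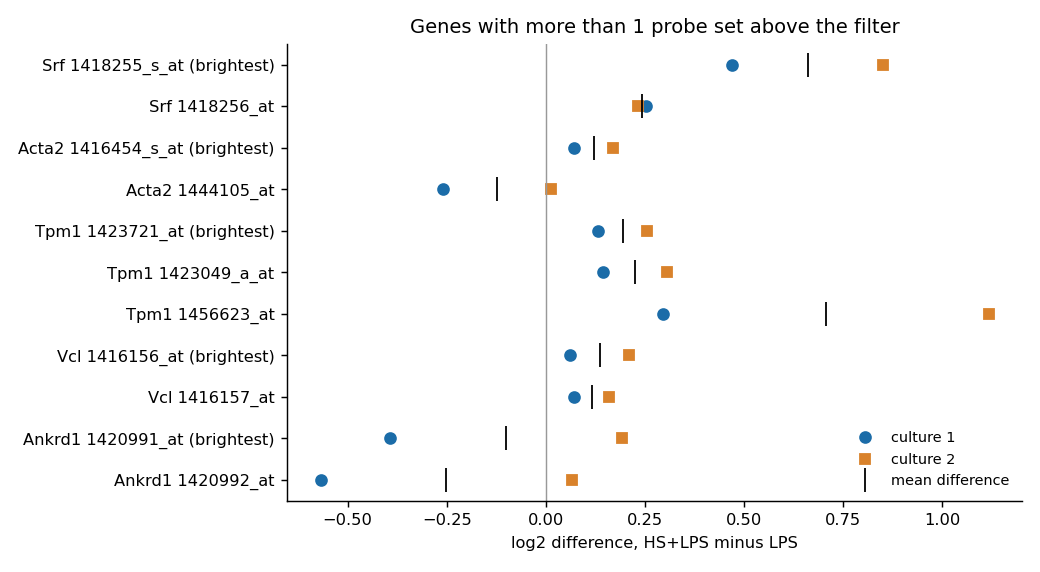
Log2 difference between HS+LPS and LPS for every probe set above the filter of the 5 genes with more than 1 such probe set; the circle is culture 1, the square culture 2 and the vertical tick their mean. The ticks of the probe sets of Srf lie at 0.66 and 0.24, and those of Tpm1 at 0.19, 0.22 and 0.71.

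HS+LPS was above LPS in both cultures for 8 of the 10 genes and below it in both for 0, where 31% and 40.7% of all genes did so. The 10 genes were chosen with earlier results of these data known, so such counts describe them and are not a test. The arrays did not overlap, with HS+LPS higher, for 5 of the 10 (Srf, Acta1, Cnn1, Myl9 and Tpm1), where 17.9% of all genes did so. Bright genes as a whole were also shifted upward. Of the 12917 genes, 908 had a mean signal of at least 1000 units, and their median log2 difference in HS+LPS against LPS was 0.13, with 75.9% of them higher in culture 1 and 77.4% higher in culture 2. The 5 bright members, Acta2, Tagln, Myl9, Tpm1 and Vcl, had differences of 0.12 to 0.34. After quantile normalization, which gives every array the same distribution of signals, the difference was -0.040 for Acta2, -0.021 for Tagln, -0.022 for Vcl, 0.023 for Tpm1 and 0.18 for Myl9. Myl9 then no longer passed with the block (adjusted p = 0.0635 by limma), whereas Srf, Acta1 and Cnn1 still did.

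Of the 4 calls with the block, 3 depended on single arrays. Cnn1 passed whichever of the 6 arrays was left out. Without the LPS array of culture 2 it was the 1 gene of the 10 that passed, without the HS+LPS array of culture 2 Acta1 and Cnn1 passed, and without the LPS array of culture 1 Cnn1, Myl9 and Srf passed. With a single prior spread for all genes in place of one that follows their mean signal, 0 of the 10 passed with the block, at adjusted p of 0.0688 for Cnn1 to 0.166 for Myl9.

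The second comparison, LPS against Control, shows what LPS alone did. Of the 10 genes, 9 had a lower mean log2 signal in LPS than in Control, with a median difference of -0.19, where the median of all genes was -0.047, and none passed, with or without the block. The bright genes had a median of -0.067 in this comparison, -0.0066 in culture 1 and -0.11 in culture 2, with 46.3% of them higher in culture 1 and 25.8% in culture 2. Their part in the differences of the 5 bright members was not tested. Those differences were -0.099 for Acta2, -0.10 for Tpm1, -0.11 for Tagln, -0.18 for Vcl and -0.29 for Myl9. After quantile normalization they were 0.010, -0.043, -0.071, -0.16 and -0.26 in the same order. Over all genes 0.147% rose and 0% fell without the block, and 2.06% rose and 0.72% fell with it. Cnn1 was the 1 member lower at an unadjusted p under 0.05 without the block, as were 1.7% of all genes. Its log2 difference was -0.40, with a standard error of 0.12 and an adjusted p of 0.133 with the block. The LPS arrays lay below both Control arrays for 3 of the 10, Srf, Cnn1 and Myl9, where 18.3% of all genes did so, and both cultures were lower for 6 of the 10, where 38.5% were. Acta1 differed by -0.31 (adjusted p = 0.182 with the block), Myl9 by -0.29 (0.120) and Srf by -0.21 (0.523). The largest difference in size was that of the dim Actc1, at -0.43 with an interval of -1.14 to 0.27. In a fit of the LPS and Control arrays alone, with the block, Cnn1 and Acta1 passed as lower in LPS, at adjusted p of 0.0126 and 0.047, and the same 2 passed when either HS+LPS array was left out. This comparison uses the LPS arrays of the first one, so the values of both depend on them.

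The third comparison, HS+LPS against Control, sets both treatments against untreated cells and shares its arrays with the other 2 comparisons. The 10 genes differed in both directions, with a median of 0.039 between -0.47 for Actc1 and 0.45 for Srf, where the median of all genes was -0.095. None passed without the block, where 0.17% of all genes rose and 0.00774% fell, and none with it, where 5.09% rose and 12.1% fell. Srf was the 1 member at an unadjusted p under 0.05 without the block, as were 4.48% of all genes on the higher side. Its log2 difference was 0.45, with an interval of 0.14 to 0.76 and an adjusted p of 0.0563 with the block, and Cnn1 followed at 0.35 (0.0735). These 2 were the genes of the 10 whose HS+LPS arrays both lay above both Control arrays, where 14.3% of all genes did so, and both passed with the block when the HS+LPS array of culture 1 was left out (adjusted p = 0.00512 for Srf and 0.00582 for Cnn1). Acta1 differed by 0.22, Actc1 by -0.47, and the other 6 genes by -0.066 to 0.089.

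The conditions thus lay in the order HS+LPS, Control, LPS from high to low for Srf and Cnn1 with no overlap at any step, and in each culture for Acta1 and Myl9. For Myl9 the HS+LPS and Control arrays overlapped, and for Acta1 the Control arrays overlapped those of both other conditions. The differences between neighbours in this order did not pass in the fit of all 6 arrays.

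The cultures of the 2 embryos differed in several of these genes. With the condition in the fit, 5 of the 10 genes were lower in culture 2 than in culture 1 (Ankrd1, Acta1, Vcl, Tagln and Myl9), where 10.1% of all genes were, and 0 were higher, where 11.5% were. Ankrd1 averaged 101.4 ± 9.3 units in culture 2 and 217.0 ± 32.1 units in culture 1 (SD, n = 3 each), with an adjusted p of 0.000589 by limma. Acta1 averaged 220.4 ± 36.1 units in culture 2 and 305.9 ± 65.9 units in culture 1 (adjusted p = 0.00492), a level 1.37 times as high in culture 1. The levels in culture 1 were 1.29 times as high for Vcl, 1.19 times for Tagln and 1.18 times for Myl9. Srf and Cnn1, with log2 differences of 0.018 and 0.11 between the cultures, did not pass. This contrast compares these 2 embryos and says nothing of embryos in general. Fibroblast markers differed too, 6 of the 10 being higher in culture 2, 1 (Fn1) lower, and 3 (Col1a2, Pdgfrb and Vim) not passing, with a median log2 difference of 0.52. Among those higher in culture 2 were Lum (lumican), at 1699 ± 121 units in culture 2 and 148.6 ± 35.4 units in culture 1 and Dcn (decorin), at 1789 ± 119 units in culture 2 and 406.5 ± 118 units in culture 1, and their part in these differences was not tested.

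The partners of Srf gave calls in both directions, as all genes did. In HS+LPS against LPS, 0 of 9 partners and repressors passed without the block, and with it 1 rose and 3 fell, with a median difference of -0.43. With the block 6.32% of all genes rose and 12.6% fell. Without it 1 of the 9 was higher and 5 were lower at an unadjusted p under 0.05, where 4.94% of all genes were higher and 11.8% lower. Mrtfb, the gene of MRTF-B, had 212.4 and 171.0 units in HS+LPS and 315.5 and 313.0 units in LPS, and fell by 0.71 (adjusted p = 0.00246, limma with the block). Elk4 fell by 0.75 (0.00137), with 210.3 and 185.5 units in HS+LPS and 333.8 and 334.9 units in LPS. Mrtfa was the other one that fell. Fhl2, an LIM protein known both as a target of the MRTF pathway and as a partner that restrains it, rose by 1.32 (0.00115), with 587.9 and 634.4 units in HS+LPS and 302.5 and 194.3 units in LPS. In LPS against Control Fhl2 fell by 0.92 (0.0221 with the block), where 2.06% of all genes rose and 0.72% fell with the block. In HS+LPS against Control Mrtfa, Mrtfb and Elk4 fell, by 0.49, 0.85 and 0.38 with the block. Of all genes, 5.09% rose and 12.1% fell with the block in that comparison.

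The immediate early targets that the ternary complex factors serve all lay higher after heat and LPS. Both HS+LPS arrays were above both LPS arrays for 11 of 11, where 17.9% of all genes did so. The list was chosen with earlier results of these data known, so its counts describe these genes and are not a test. Of these genes, 5 rose without the block in HS+LPS against LPS, 10 rose with it and 0 fell, and the median difference was 1.64. Of all genes, 0.511% rose without the block, and with it 6.32% rose and 12.6% fell. Arc was above the noise level only in HS+LPS, at 883.9 and 1040 units, and was at least 96.6-fold higher than in LPS (adjusted p = 0.00031, limma). Egr1 had 2725 and 4195 units in HS+LPS and 473.9 and 621.5 units in LPS, a log2 difference of 2.63 (0.0158). Nr4a1 rose by 3.06 (0.0238) and Junb by 1.64 (0.0199). Fosb passed as well (0.0389), with 84.4 and 190.4 units in HS+LPS and 8.45 and 2.297 units in LPS, and since 1 of its 2 LPS arrays was above the noise level no fold is given. In LPS against Control 0 of the 11 passed, with or without the block, and the median was 0.020. Without the block 1 was higher at an unadjusted p under 0.05, as were 3.17% of all genes. In HS+LPS against Control 4 rose without the block, Arc (at least 93.4-fold), Junb, Nr4a1 and Egr1, and 10 with it. Of all genes, 0.17% rose without the block in that comparison and 5.09% with it. The 10 contractile targets and these 11 genes are both lists of known targets of the same factor, whose binding was not measured here. Their median differences in HS+LPS against LPS were 0.17 and 1.64.

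**Figure D4:**
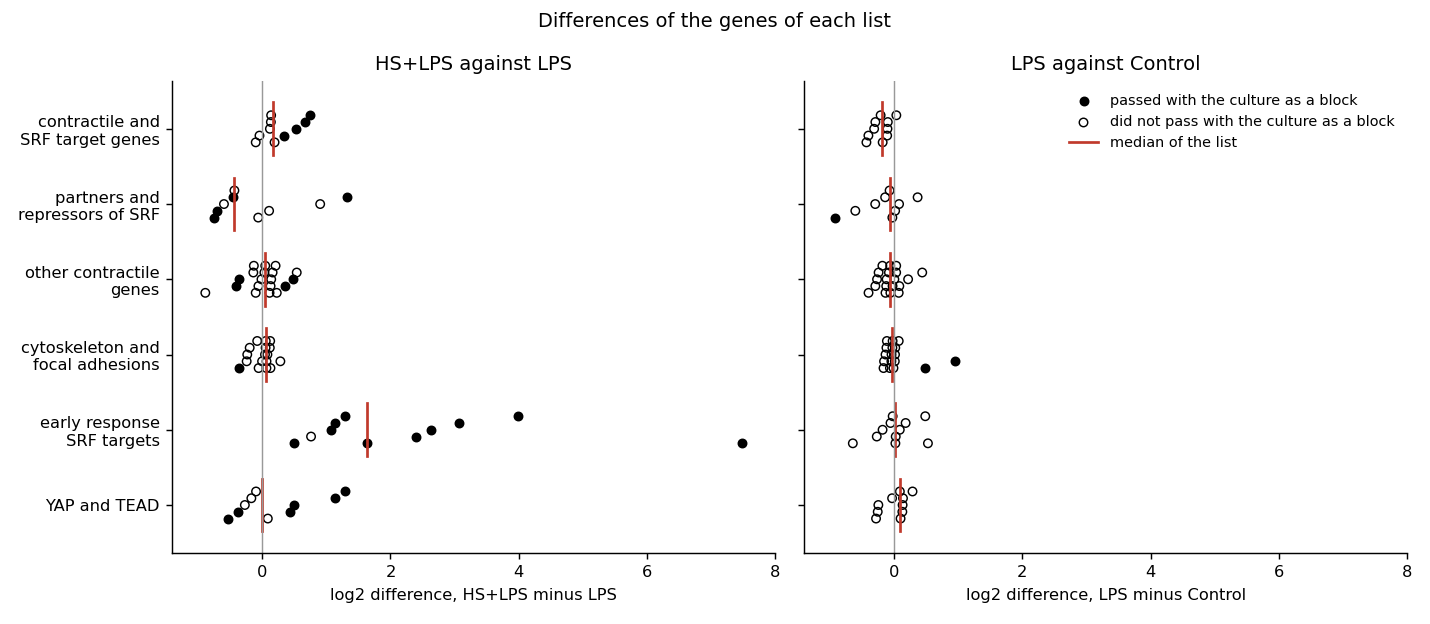
Log2 difference of every tested gene of the 10 contractile and SRF target genes and of 5 related lists, 1 row per list, in HS+LPS against LPS on the left and LPS against Control on the right; red ticks are medians and filled points passed with the culture as a block. In HS+LPS against LPS the early response targets have a median of 1.64 and the contractile targets one of 0.17.

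The other lists gave few calls, in shares to be read against the 6.32% of all genes that rose and the 12.6% that fell with the block. Of 19 other smooth muscle and contractile genes, 2 rose with the block in HS+LPS against LPS, Csrp2 by 0.49 and Actg2 (smooth muscle gamma-actin) by 0.35, and 2 fell, Tgfb1i1 by 0.37 and Pdlim7. Of 17 cytoskeletal and adhesion genes, 0 rose and 1 fell, Vasp, which lengthens actin filaments, by 0.37. Neither list had a gene that passed without the block, where 0 of each list were higher and 1 of each lower at an unadjusted p under 0.05.

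Of 10 genes of YAP, TEAD and their targets, none passed without the block, 2 being higher and 1 lower at an unadjusted p under 0.05, and with it 4 rose and 2 fell, with a median of -0.0039. The genes with the smallest p were Tead1, which fell by 0.53 (0.0053), Ajuba, which rose by 0.50 (0.0105), and Yap1, which fell by 0.38 (0.0147). Ccn1, a target, had 2383 and 3465 units in HS+LPS and 1810 and 760 units in LPS. Ccn2, another target, had 4415 and 4184 units in HS+LPS and 3881 and 979 units in LPS. HS+LPS was above LPS in both cultures for 4 of the 10 and below it in both for 4, where 31% and 40.7% of all genes did so. In LPS against Control, Itga5, a fibronectin receptor subunit, rose by 0.96 (0.00529) and Pxn, the adhesion adaptor paxillin, by 0.48 (0.0134) with the block. There 0 other genes of these 3 lists passed, where 2.06% of all genes rose and 0.72% fell with the block. Both also rose in HS+LPS against Control, by 0.71 and 0.54 with the block. In that comparison, where 5.09% of all genes rose and 12.1% fell with the block, 3 contractile genes rose and 1 fell, 2 adhesion genes rose and 2 fell, and 1 YAP and TEAD gene rose and 2 fell. Des, the muscle intermediate filament desmin, had the largest rise of these, 0.98 (0.00994), and Tgfb1i1 the largest fall among the contractile genes, by 0.55 (0.00254).

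Markers of muscle were measured beside these genes, since Acta1, Actc1 and Cnn1 also mark muscle cells. Of 9 skeletal muscle markers, 2 were above the noise level on all 6 arrays, Myf5 and Myh3 were above it on none, and Myod1 and Myog on 1 array each, in Control. Their summed signal was 50.1 to 85.7 units in HS+LPS, 41.6 to 50.6 units in LPS and 50.9 to 71.6 units in Control. Of 8 cardiac markers 2 were above the noise level on all arrays and Tnni3 on none, and their sum was 134 to 159 units in HS+LPS, 39.5 to 63.2 units in LPS and 58.5 to 66.8 units in Control. Tnnt2, cardiac troponin T, passed without the block, with 72.6 and 58.3 units in HS+LPS and 10.8 and 7.91 units in LPS, which rose by 2.44 (adjusted p = 0.0214, limma). With the block a second cardiac marker, Nppb, also rose, by 1.00 (0.037), so that 2 of the 4 cardiac markers tested rose. Of all genes, 6.32% rose and 12.6% fell with the block in HS+LPS against LPS. Without it 0.511% rose and 0.828% fell, and 4.94% were higher and 11.8% lower at an unadjusted p under 0.05. The 6 smooth muscle markers summed to 851 to 1120 units in HS+LPS, 748 to 836 units in LPS and 791 to 880 units in Control, and the 10 fibroblast markers to 28349 to 32916 units in HS+LPS, 28599 to 31999 units in LPS and 26959 to 36777 units in Control. Among the smooth muscle markers 0 passed without the block, with 0 at an unadjusted p under 0.05, and 1 of 6 rose with it, Actg2, and of the 3 skeletal muscle markers tested 0 passed in either fit, with 0 at an unadjusted p under 0.05 without the block. Among the fibroblast markers Pdgfrb fell by 0.81 (0.0277) without the block, and with it Pdgfra fell as well, by 0.96 (0.0073). Of the other cell types, endothelial markers summed to 47.3 to 58.1 units in HS+LPS, 23.0 to 47.8 units in LPS and 36.2 to 43.6 units in Control. Of these 5 markers 2, Kdr and Tek, were above the noise level on all 6 arrays, and Pecam1 and Tie1 were above it on none. Epithelial markers summed to 89.3 to 126 units in HS+LPS, 52.2 to 96.3 units in LPS and 54.3 to 61.3 units in Control. Of these 6 markers 2, Epcam and Krt18, were above the noise level on all 6 arrays, and Cdh1 was above it on none. Of 6 pericyte markers 4 were above the noise level on all arrays, as were 4 of 7 macrophage markers. Kcnj8 and Abcc9 of the first list and Fcgr1 of the second were above it on none. The pericyte sum was 377 to 536 units in HS+LPS, 369 to 464 units in LPS and 385 to 520 units in Control. The macrophage sum was 220 to 342 units, 196 to 375 units and 220 to 406 units in the same order. Both sums overlapped between all 3 conditions. No gene of these 4 lists passed without the block in HS+LPS against LPS, and 1 macrophage and 1 epithelial marker were higher at an unadjusted p under 0.05. With the block these 2 rose, Krt18 by 1.25 (0.0464) and Cx3cr1 (0.0401), and no pericyte or endothelial marker passed. Cx3cr1 had 20.7 and 17.2 units in HS+LPS and 9.71 and 2.99 units in LPS. The second of these LPS values was under the noise level, so no fold is given. The part of these markers in the differences of the 10 genes was not tested.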

How the data were processed

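RNA of 6 samples was hybridised to Affymetrix Mouse Genome 430 2.0 arrays after cRNA labelling from total RNA, per the labels' protocols. The authors deposited linear intensity values per probe set, and the arrays' trimmed means (2% off each end) all equal 100.001, so each array had been scaled to a common level before deposit. The software is not given in the sources used here. Symbols came from the platform annotation, and 64 control probe sets were left out.

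From these deposited intensities log2(intensity + 3.37) was taken, 3.37 being their 25th percentile. Probe sets under the 40th percentile of the mean log2 value were dropped, and each gene kept its brightest probe set with 1 symbol. limma 3.58.1 in R 4.3.3 (lmFit, eBayes with trend) was fitted to all 3 conditions, with Benjamini-Hochberg adjustment over 12917 genes. The fit without the block was run on simulated data for HS+LPS against LPS. The simulated arrays were not paired and the changes were larger than those of the members. That run therefore says nothing of the calls with the block. The fit has 3 residual degrees of freedom, and 2 with the culture as a block. The pairing of the samples was read from the culture numbers in their titles, same-numbered arrays being taken to come from the same embryo. The deviations of paired arrays from their condition means correlated at 0.54 to 0.62. The rule for named genes was all 10 members and every gene of the related lists that passed without the block. Otherwise it took up to 3 per list and comparison with the smallest p with the block. Mrtfa, Pdlim7, Ccn1, Ccn2, the cell type markers and the culture markers Lum and Dcn fall outside it. They were named after their values were seen, and the noise level was also chosen after values were seen. A fold against a condition at noise level is set against that level as a bound. Other normalizations, pseudocounts, filters, probe-set rules and left-out arrays were tried, and fits with both the block and a further change were added after seeing the data. The members and lists were chosen with earlier results of these data known. Promoter sequences are RefSeq's on GRCm38.p6. One related list is not reported here.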

Additional observations from a re-analysis of the deposited data

How the results depend on the processing

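Without the culture block, 0 of the 10 genes passed in each of the 3 comparisons under all 16 settings run. With the replicate block, which follows the pairing of arrays by embryo, the count higher in HS+LPS against LPS was 4, and 3 after quantile normalization, 5 with the mean of a gene's probe sets (Tpm1 added, 0.37) and 0 with eBayes without trend. Leaving out 1 array at a time changed which genes were called with the block. In LPS against Control and in HS+LPS against Control, these fits with the block gave calls for some of the left-out arrays and none for the others. In HS+LPS against Control with the block, Srf passed after quantile normalization (0.54, adjusted p = 0.042), and Cnn1 and Srf passed without the HS+LPS array of culture 1. In LPS against Control with the block, 2 genes passed as lower in the fit of those conditions alone. Signs changed in 18 of the 30 comparisons of a gene, in 69 values of which 0 passed, and the cause was not tested. After quantile normalization the value was -0.040 for Acta2, -0.021 for Tagln and -0.022 for Vcl in HS+LPS against LPS, 0.010 for Acta2 in LPS against Control, and -0.029 for Acta2, -0.092 for Tagln, -0.075 for Myl9, -0.020 for Tpm1 and 0.018 for Ankrd1 in HS+LPS against Control. With the mean of probe sets it was -0.00108 for Acta2 in HS+LPS against LPS, -0.00509 for Acta2 in HS+LPS against Control and -0.018 for Ankrd1 in LPS against Control, and with a pseudocount of 16 it was 0.0027 for Actc1 in HS+LPS against LPS. With 1 array left out, HS+LPS against LPS ran from -0.021 to 0.26 for Acta2, -0.050 to 0.33 for Tagln, -0.11 to 0.38 for Vcl, -0.73 to 0.53 for Ankrd1 and -0.67 to 0.59 for Actc1. LPS against Control ran from -0.24 to 0.043 for Acta2, -0.30 to 0.081 for Tagln, -0.42 to 0.066 for Vcl, -0.22 to 0.017 for Tpm1 and -0.60 to 0.67 for Ankrd1. HS+LPS against Control ran from -0.078 to 0.52 for Acta1, -0.10 to 0.15 for Acta2, -1.10 to 0.15 for Actc1, -0.091 to 0.15 for Tagln, -0.040 to 0.14 for Myl9, -0.031 to 0.21 for Tpm1, -0.21 to 0.13 for Vcl and -0.70 to 0.57 for Ankrd1. A condition left with 1 array is assumed to vary like the others. Among the 10 genes Actc1 lies nearest the noise level, which limits its precision.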
